A study of Mus musculus with 4 samples.

Results

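The genes described here are 10 members of the glutathione peroxidase and glutathione transferase families, taken by symbol from the 31017 gene names counted in sorted mouse beta cells. They are the peroxidases Gpx1, Gpx2, Gpx3, Gpx4, Gpx7 and Gpx8, the microsomal transferases Mgst1 and Mgst3, and the cytosolic transferases Gsta4 and Gstp1. All 10 have a row in each count table, and 8 passed the filter on low counts; Gpx8 and Gsta4 did not. The study compared bulk RNA sequencing libraries of beta cells, the insulin-making cells of the pancreatic islets, sorted by flow cytometry on CD63, a tetraspanin of late endosomes, lysosomes and secretory vesicles. Both groups came from wild type C57BL/6J male mice of 10 weeks whose islets had been cultured overnight, and each group, CD63 high and CD63 low, has 2 libraries. The labels describe no gate other than CD63. They also leave unstated if the replicates are separate mice or sorting runs, so a p-value here reflects spread among 4 libraries that may be technical.

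Glutathione peroxidases reduce hydrogen peroxide or lipid peroxides at the expense of glutathione, and glutathione transferases join glutathione to reactive compounds. In most of the peroxidases the catalytic residue is selenocysteine, which is read from a TGA codon that would otherwise end translation. Rodent beta cells are known for low levels of several peroxide-removing enzymes, among them catalase and Gpx1, compared with liver. Mgst1 is among the genes described as selectively repressed in beta cells relative to other tissues.

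The catalytic codon divides the peroxidases into 2 classes, and is shown here because the peroxidase that rose belongs to the selenocysteine class. The lines give 30 bases of the coding strand of the transcripts in GENCODE M21 (GRCm38), with the catalytic codon in capitals. In Gpx1, Gpx2, Gpx3 and Gpx4 it is the annotated selenocysteine codon TGA. In Gpx7 and Gpx8 the aligned codon, TGT or TGC, encodes cysteine.
Gpx1: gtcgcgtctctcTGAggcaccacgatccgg
Gpx2: gtggcgtcactcTGAggaacaactacccgg
Gpx3: gtagccagctacTGAggtctgacagaccaa
Gpx4: gtggcctcgcaaTGAggcaaaactgacgta
Gpx7: gtagctagcgaaTGTggcttcacagaccag
Gpx8: gtggctagtgacTGCcgcttcacagacaag
The codons lie at chr9:108339451-108339453 (+ strand) for Gpx1, chr12:76795256-76795258 (- strand) for Gpx2, chr11:54907256-54907258 (+ strand) for Gpx3 and chr10:80054737-80054739 (+ strand) for Gpx4. Those of Gpx7 and Gpx8 lie at chr4:108403430-108403432 and chr13:113045661-113045663, both on the - strand.

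Library totals were 29249270 to 35003307 counts. Cd63 itself was 1.76-fold higher in the CD63 high group (edgeR adjusted p 0.0484), which checks the sort and is no finding; it passed in 8 of 14 alternative analyses. Ins1 and Ins2 took 48.7 to 56.4% of all counts. Of 10 beta cell markers 3 fell in CD63 high cells (Slc2a2, Mafa and Slc30a8) and none rose. Over all genes, edgeR's quasi-likelihood test called 369 of 13241 tested genes at a Benjamini-Hochberg adjusted p under 0.05. With library size as the only scaling, 67 genes were called. Markers of other cell types were higher in CD63 high libraries. Summed over 13 macrophage markers the level in CPM (counts per 1000000 counts of the library) was 158 and 526 in the CD63 high libraries, 23.9 and 43.5 in the CD63 low ones, and 11 of the 13 rose. Alpha cell markers summed to 5549 and 5760 CPM against 396 and 536 CPM (2 of 7 tested rose). Delta cell markers summed to 465 and 842 CPM against 67.6 and 48.7 CPM (3 of 3 tested rose). Gamma cell markers summed to 2397 and 3890 CPM against 514 and 309 CPM (2 of 2 tested rose). Gcg made up most of the alpha sum in the CD63 high libraries, at 4987 and 5646 CPM against 180 and 287 CPM, scaled by TMM. Acinar markers summed to 787 and 1270 CPM against 20.97 and 331 CPM (4 of 11 tested rose). Duct markers, with Cftr at 0, summed to 2613 and 1301 CPM against 648 and 760 CPM (1 of 5 tested rose). Endothelial, mesenchymal, Schwann cell, lymphocyte and erythroid lists stayed under 8 CPM in every library. Most of their genes were too rare to be tested. Those tested were 3 of 8 endothelial, 3 of 9 mesenchymal, 2 of 4 Schwann cell, 1 of 5 lymphocyte and 0 of 4 erythroid genes. None of those tested passed. Genes without counts in any library were Cdh5 (1 of 8 endothelial), Pdgfra (1 of 9 mesenchymal) and Ngfr (1 of 4 Schwann cell). Cd3e, Cd3d and Ms4a1 (3 of 5 lymphocyte) had none either, while 0 of 4 erythroid genes were at 0 throughout. The mesenchymal sum was 6.80 CPM in CD63 high replicate 2, against 0.657 CPM in CD63 high replicate 1.

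Of the 8 tested members, Gpx3 and Mgst1 rose in CD63 high cells and none fell. Over all tested genes 2.50% rose and 0.287% fell, and 2.79% were called in either direction. The other 6 tested members did not pass. The median log2 fold change was 0.26 over the 8 tested members and -0.014 over all tested genes. For 4 of the 8 tested members the groups were separate in CPM, against 46.0% of all tested genes. Gpx1, Gpx3 and Mgst1 were separate and higher in CD63 high (23.8% of all tested genes), and Gpx7 separate and lower (22.2%). Since the cells are measured in bulk, a change in the share of cells that express a gene and a change in its RNA per cell cannot be told apart.

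**Figure D1:**
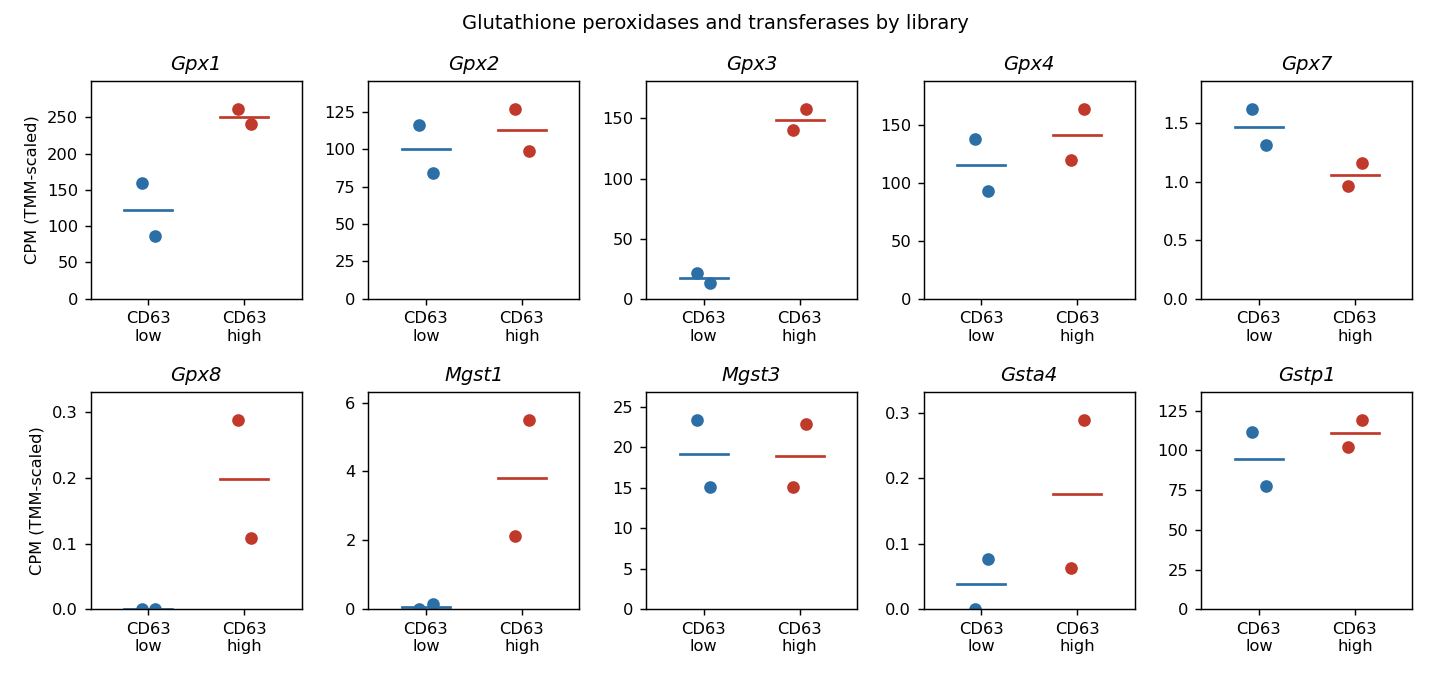
Level of each of the 10 genes in every library, in CPM scaled by TMM on a linear axis from 0 (points: the 2 libraries of a group; horizontal lines: their mean). Gpx3 lies at 140 and 158 CPM in the CD63 high libraries and at 21.6 and 13.3 CPM in the CD63 low ones, while the groups overlap for Gpx2, Gpx4, Mgst3, Gsta4 and Gstp1.

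Gpx3 encodes the secreted, plasma form of glutathione peroxidase, and was the member with the clearest difference. Its gene spans chr11:54902453-54910377 (mm10, + strand). It had 4387 and 4361 counts in CD63 high replicates 1 and 2, and 656 and 517 counts in CD63 low replicates 1 and 2. These correspond to TMM-scaled levels of 140 and 158 CPM against 21.6 and 13.3 CPM. The group means were 149 ± 12.4 CPM for CD63 high and 17.4 ± 5.90 CPM for CD63 low (SD, n = 2 each). Both CD63 high libraries lie far above both CD63 low libraries. The CD63 low libraries lay 1.63-fold apart and the CD63 high ones 1.12-fold. The level was 8.54-fold higher in CD63 high cells. In edgeR's test the log2 fold change was 3.09 with an SE of 0.26 and an adjusted p of 0.000757. By its p-value Gpx3 ranked 3 of the 13241 tested genes. It passed the threshold in each of 14 alternative analyses, with log2 fold changes of 2.80 to 3.48 and adjusted p from 1.16e-33 to 0.0128.

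**Figure D2:**
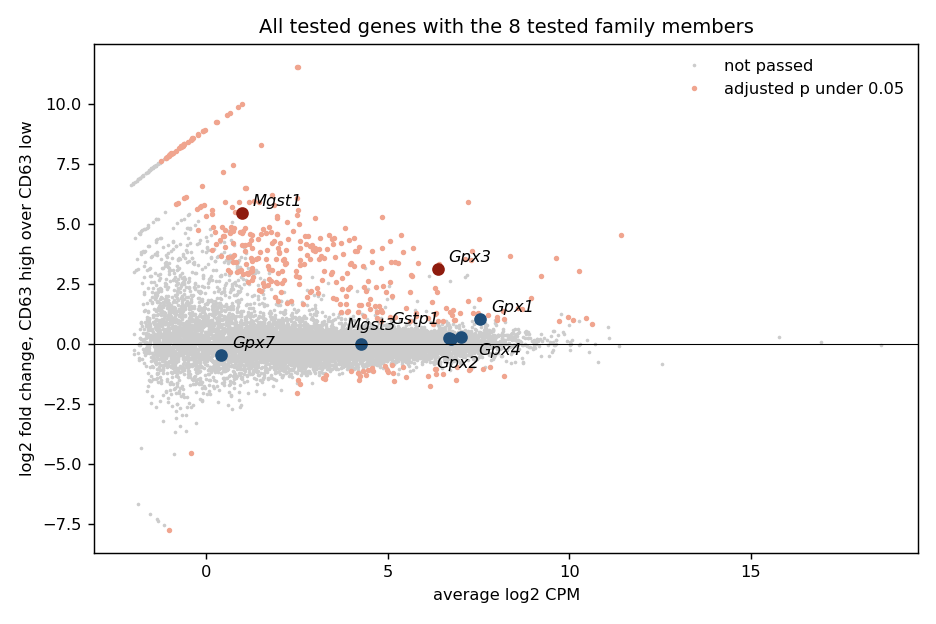
Average log2 CPM (x axis) and log2 fold change, CD63 high over CD63 low (y axis), of the 13241 tested genes (grey: not passed; orange: adjusted p under 0.05), with the 8 tested members as large points (dark red: rose; blue: not passed). Gpx3 stands at 3.09 and Mgst1 at 5.45, and the latter lies among weakly expressed genes.

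Mgst1 encodes a microsomal membrane enzyme with transferase and peroxidase activity, and its transcript was rare in these cells. Its gene spans chr6:138140316-138156755 (mm10, + strand). It had 67 and 152 counts in CD63 high replicates 1 and 2, and 0 and 6 counts in CD63 low replicates 1 and 2. TMM-scaled levels were 2.14 and 5.49 CPM against 0 and 0.154 CPM. Both CD63 high libraries were thus above both CD63 low libraries, although the CD63 high libraries differed 2.57-fold between themselves. The fitted log2 fold change was 5.45 (SE 0.97, edgeR adjusted p 0.0144), and its size depends on the few counts in CD63 low. The call ended with library size as the only scaling (adjusted p 0.0911) and with limma-voom (0.0563). With 1 library left out the fitted log2 fold change ran from 4.59 to 9.83. The highest value is that without CD63 low replicate 2, where the remaining CD63 low library has no counts, so it depends on the prior count and is no bound.

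Markers of several other cell types were higher in the same CD63 high libraries as Gpx3 and Mgst1. Between the CD63 high libraries, the summed macrophage markers were 3.62 times as high in replicate 2 as in replicate 1, on the TMM scale. Over the same pair Gpx3 was 1.12 times, Mgst1 2.57 times and alpha cell markers 1.13 times as high. Delta, gamma and acinar markers were 1.97, 1.77 and 1.76 times as high. In CD63 low replicate 1, Gpx3 was 1.63 times its level in replicate 2, with delta markers at 1.68, gamma markers at 2.01, alpha markers at 0.893, macrophage markers at 0.665 and acinar markers at 0.0766 times. Mgst1 had counts in replicate 2 but none in replicate 1. The part of these cell types in the rise of Gpx3 and Mgst1 was not tested.

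Gpx1, the abundant cytosolic peroxidase, had the next largest log2 fold change of the 8 tested members but missed the threshold. Its gene spans chr9:108338903-108340343 (mm10, + strand). Its levels were 261 and 241 CPM for CD63 high, against 159 and 86.3 CPM for CD63 low. The groups did not overlap, and the CD63 low libraries lay 1.84-fold apart, farther than the CD63 high ones. The log2 fold change was 1.03 (SE 0.27) with an edgeR adjusted p of 0.0725. It was positive in all 14 alternatives and passed in 8 of them. Among edgeR fits on all 4 libraries, those with no filter and with replicates blocked in either pairing called Gpx1. Those with DESeq2 size factors (adjusted p 0.0642), upper quartile scaling (0.0712) and library size only (0.143) did not. A minimum count of 20 (0.0736) and robust dispersion (0.0831) also left Gpx1 uncalled. DESeq2 (adjusted p 0.00338) and limma-voom (0.0479) called it, as did the fits without CD63 low replicate 1, CD63 high replicate 2 and CD63 high replicate 1 (log2 fold changes 1.54, 1.09 and 0.98). Without CD63 low replicate 2 it was 0.68 (adjusted p 0.171).

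Gpx4, which reduces lipid peroxides in membranes and guards cells from ferroptosis, gave 120 and 163 CPM for CD63 high, against 138 and 93.4 CPM for CD63 low. The groups overlapped, and the log2 fold change of 0.29 (SE 0.24) did not pass (edgeR adjusted p 0.649). Gpx2, best known from the epithelium of the gut, gave 127 and 98.8 CPM against 116 and 83.9 CPM. Its log2 fold change of 0.17 (SE 0.23) did not pass either (edgeR adjusted p 0.808), and changed sign without CD63 high replicate 1 or CD63 low replicate 2. For both genes the libraries of a group lay farther apart than the group means. Of the 50-base stretches of the main Gpx4 transcript, 61.7% also occur in transcripts of other gene names, mostly the pseudogene Gpx4-ps2, and 18.9% of those of Gpx2 in Gpx2-ps1. Reads from such stretches are left out where they align to several places, so these levels may be understated.

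Gpx7 and Gpx8, the cysteine-type peroxidases of the endoplasmic reticulum, where they use peroxide to drive disulfide bond formation, were rare. Gpx7 had 30 and 32 counts in CD63 high and 49 and 51 counts in CD63 low libraries. Its 0.958 and 1.16 CPM lay below the 1.62 and 1.31 CPM of the CD63 low libraries, and its log2 fold change of -0.47 (SE 0.64) did not pass (edgeR adjusted p 0.815). Gpx8 had 9 and 3 counts in CD63 high libraries and none in CD63 low ones. Its pooled level in CD63 high cells was 4.70 times a floor of 3 counts over the CD63 low group. That ratio leaves out the error of the CD63 high counts and is no lower bound. Gpx8 was too rare to be tested.

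Among the other transferases, Gstp1, the pi class enzyme, gave 102 and 119 CPM for CD63 high, against 112 and 77.8 CPM for CD63 low. The log2 fold change of 0.23 (SE 0.22) did not pass (edgeR adjusted p 0.719), and the groups overlapped. Of its 50-base stretches, 62.3% also occur in other gene names, among them the near copy Gstp2, so its level is uncertain. Mgst3, a microsomal enzyme, gave 15.1 and 22.9 CPM against 23.4 and 15.1 CPM. These ranges nearly coincide, with a log2 fold change of -0.019 (SE 0.29, edgeR adjusted p 0.989) whose sign changed in 3 of 14 alternatives. Gsta4, an alpha class enzyme that conjugates the lipid peroxidation product 4-hydroxynonenal, had 2 and 8 counts for CD63 high, against 0 and 3 counts for CD63 low. The ratio of these sums, scaled for depth, was 3.91 with an exact 95% interval of 1.01 to 22.1. That interval covers counting error of fragments only, not of molecules. The CD63 groups overlapped for Gsta4, which was not tested.

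Levels were divided by the exon length in the deposited tables to set members side by side. They are not corrected for stretches shared with other gene names, 61.7% in Gpx4, 62.3% in Gstp1 and 18.9% in Gpx2. Exon length also exceeds main transcript length unevenly, as in Gpx2 (3222 against 1067 bases) and Gpx3 (1813 against 1594 bases). The order below is therefore uncertain. In CD63 high cells Gpx1 led with 181 and 167 CPM per kb, followed by Gstp1 at 135 and 157, Gpx4 at 69.7 and 94.8, and Gpx3 at 77.2 and 86.9. Gpx4 and Gpx3 overlapped in that order, and Gpx2 (39.3 and 30.7), Mgst3 (13.7 and 20.9), Mgst1 (1.06 and 2.73) and Gpx7 (0.743 and 0.897) followed without overlap. In CD63 low cells Gstp1 (148 and 103), Gpx1 (110 and 59.9) and Gpx4 (79.95 and 54.2) overlapped each with the next. Gpx2 (36.1 and 26.0), Mgst3 (21.3 and 13.8) and Gpx3 (11.9 and 7.32) came after them. By these lengths Gpx3 stood 4 in order in CD63 high and 6 in CD63 low cells.

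Within the summed level of the 6 peroxidases, Gpx3 made up 20.98% and 22.8% in the CD63 high libraries, but 4.98% and 4.93% in the CD63 low ones. Gpx4 made up 18.9% and 24.9% against 33.4% and 36.5%, and Gpx2 10.7% and 8.06% against 15.1% and 17.5%. The shares of Gpx1, 49.2% and 43.9% against 46.0% and 40.3%, overlapped between the groups. The ratio of Gpx3 to Gpx1 per kb was 0.427 and 0.520 for CD63 high, against 0.108 and 0.122 for CD63 low. The summed level was 368 and 380 CPM per kb in CD63 high and 239 and 148 CPM per kb in CD63 low libraries. These shares are descriptions: with 2 libraries a group, the smallest two-sided p of an exact permutation test is 0.333. They are also not corrected for the stretches that Gpx4 (61.7%) and Gpx2 (18.9%) share with other gene names. If those levels are understated, the shares of the other peroxidases are overstated. The exon length of Gpx2, 3222 bases, includes a retained intron and is 3.02 times its main transcript of 1067 bases. With transcript lengths instead, an alternative chosen after seeing the data, Gpx2 made up 18.3% in CD63 high and 28.3% in CD63 low cells, and Gpx3 16.2% and 3.24%. By group means Gpx2 then stood above Gpx3 in CD63 high cells too, and Gpx4 above Gpx1 in CD63 low cells. Neither order held in both libraries of its group. Gpx3 led Gpx2 in CD63 high replicate 2 (17.0% against 15.9%), and Gpx1 led Gpx4 in CD63 low replicate 1 (36.1% against 33.7%).

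**Figure D3:**
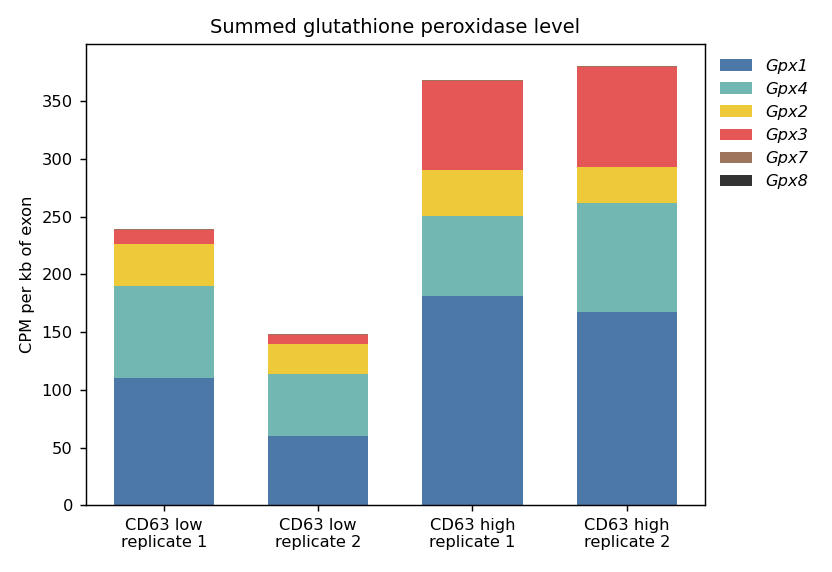
Level of the 6 glutathione peroxidases in each library, in CPM per kb of exon (y axis, from 0), stacked by gene. The red block of Gpx3 rises from 11.9 and 7.32 CPM per kb in CD63 low to 77.2 and 86.9 CPM per kb in CD63 high libraries; Gpx7 and Gpx8 are too low to be seen.

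The genes whose profile over the 4 libraries was most like that of Gpx3, by Euclidean distance of centred log2 CPM among 7668 other genes whose mean log2 CPM reached 3, were Ppy, Rbp4 and Fgb. Ppy, the gamma cell hormone gene, lay at a distance of 0.424 with 1631 and 2730 CPM against 337 and 206 CPM. Rbp4, a retinol carrier and delta cell marker, lay at 0.608, with 49.3 and 65.4 CPM against 13.5 and 5.70 CPM. Fgb, a fibrinogen chain, lay at 0.719, with 109 and 67.5 CPM against 17.2 and 8.14 CPM.

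Other genes of glutathione and peroxide metabolism were taken from 7 lists with 86 genes, of which 68 were tested. By edgeR's test 1 of them, Hpgds, rose and none fell, where 2.50% of all tested genes rose and 0.287% fell. Hpgds, a sigma class glutathione transferase that makes prostaglandin D2, gave 53.8 and 27.6 CPM for CD63 high, against 12.3 and 18.4 CPM for CD63 low. The groups did not overlap, and CD63 high replicate 1 stood above the rest. Its log2 fold change was 1.41 (SE 0.33, edgeR adjusted p 0.0496). The call ended without CD63 high replicate 1 (0.84, adjusted p 0.221), with limma-voom (0.0576), in the robust fit (0.0630) and with library size as the only scaling (0.250). Hpgds in CD63 high replicate 2 was 0.512 times its level in replicate 1, a pair in which macrophage markers were 3.62 times and duct markers 0.542 times as high. In CD63 low replicate 1, Hpgds was 0.671 times its level in replicate 2, with macrophage markers at 0.665 and duct markers at 1.03 times. The part of these cell types in its rise was not tested. The median log2 fold change over the 68 genes was 0.12, against -0.014 over all tested genes. The groups were separate with CD63 high above for 25 of the 68, against 23.8% of all tested genes.

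Glutathione synthesis genes gave no call among 5 tested. Gclc and Gclm, the subunits of the rate-limiting glutamate-cysteine ligase, had log2 fold changes of 0.10 (SE 0.26) and 0.07 (SE 0.20). Slc7a11, the cystine carrier, gave 6.89 and 5.09 CPM against 2.87 and 0.591 CPM (log2 fold change 1.81, SE 0.62, edgeR adjusted p 0.176). None of 7 genes of glutathione reduction and NADPH supply passed, and Gsr, glutathione reductase, had a log2 fold change of 0.21 (SE 0.19). Nnt, the mitochondrial transhydrogenase whose gene carries a known deletion in C57BL/6J mice, gave 14.4 and 13.4 CPM against 17.1 and 24.4 CPM (edgeR adjusted p 0.329).

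None of 9 tested genes of glutathione breakdown and export and none of 6 glutaredoxins and glyoxalases passed. Of 16 tested genes listed as other transferases and peroxidases, 15 did not pass. Gsto1, an omega class enzyme, came nearest of these with a log2 fold change of 1.03 (SE 0.25, edgeR adjusted p 0.0571). Of 16 tested genes listed as other superoxide and peroxide enzymes none passed. For 10 of these 16 the groups were separate with CD63 high above, against 23.8% of all tested genes. This count was 6 of 16 for the other transferases and peroxidases, 2 of 5 for synthesis and 2 of 7 for reduction. It was 2 of 9 for breakdown and export, 2 of 6 for glutaredoxins and glyoxalases, and 1 of 9 for selenocysteine insertion. Sod2, the mitochondrial superoxide dismutase, was nearest, at 260 and 166 CPM against 126 and 93.6 CPM (log2 fold change 0.95, SE 0.25, edgeR adjusted p 0.0767). Among the 9 genes of the selenocysteine insertion list none passed, and 7 had log2 fold changes below 0, against 6801 of 13241 tested genes. Sepsecs, which makes the selenocysteine carried by its tRNA, gave 24.9 and 26.8 CPM against 46.7 and 39.5 CPM (log2 fold change -0.74, SE 0.21, edgeR adjusted p 0.107). The genes named here other than Hpgds were chosen after their values were seen.

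**Figure D4:**
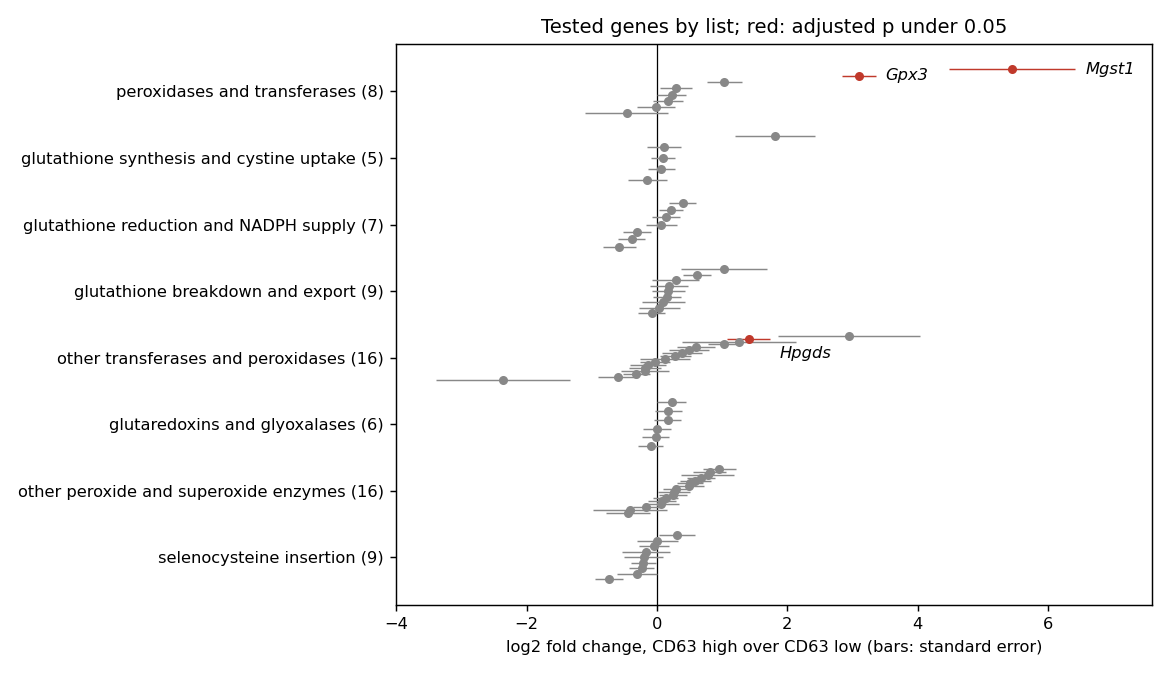
Log2 fold change, CD63 high over CD63 low, of the tested peroxidases and transferases and of the 7 further lists (points: genes; bars: standard error; red: adjusted p under 0.05; number of tested genes in brackets). Gpx3, Mgst1 and Hpgds are the genes past the threshold, and the uncalled genes farthest from 0, at 2.95 and -2.37, have wide errors.

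The promoters of the members that rose were read from RefSeq (GRCm38.p6), 250 bases before to 50 after the start, for the antioxidant response element core TGACNNNGC on both strands. This core is the binding motif of NRF2, an activator of many glutathione genes. It occurs in 12.4% of 32851 mouse promoters of this length. Promoters were found for 9 of the 10 members, 13 in all, and 1 of them, of Mgst1, holds a match, on the strand opposite to the gene and starting at position -56. Another Mgst1 promoter, at chr6:138141337-138141636 (+ strand), holds no match and is not printed. The Gpx3 promoter holds none in this window, which lies inside the gene span chr11:54902453-54910377 given above. The bases before that span were not read. Capitals mark the match.
Gpx3 promoter, chr11:54902604-54902903 (+ strand): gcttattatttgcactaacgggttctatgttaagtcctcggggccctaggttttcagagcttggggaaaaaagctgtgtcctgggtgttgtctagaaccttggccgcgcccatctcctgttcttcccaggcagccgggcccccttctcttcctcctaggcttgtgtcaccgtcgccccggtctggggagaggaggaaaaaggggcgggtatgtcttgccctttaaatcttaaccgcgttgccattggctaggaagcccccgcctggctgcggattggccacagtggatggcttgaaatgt
Mgst1 promoter, chr6:138140277-138140576 (+ strand): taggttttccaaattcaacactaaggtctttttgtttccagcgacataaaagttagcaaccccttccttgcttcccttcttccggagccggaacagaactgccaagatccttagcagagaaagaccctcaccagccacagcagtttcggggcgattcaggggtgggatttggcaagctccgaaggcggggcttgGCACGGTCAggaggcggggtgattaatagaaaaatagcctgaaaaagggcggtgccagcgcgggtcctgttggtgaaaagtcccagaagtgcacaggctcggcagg
A match is a description of the letters and not a binding site.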

How the data were processed

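Per the labels' protocols, polyA RNA went through SMARTer v4 amplification for low input, then Nextera XT library preparation. No strand mark or molecular identifier is named. Fragments may thus be copies of the same molecule, and intervals and floors cover counting error of fragments only, not of molecules. The authors deposited raw fragment counts per gene name, made with featureCounts 1.6.2 on Cell Ranger's mm10 annotation (3.0.0), per the file headers, with no option for strand or for reads with several alignments. The submitters' processing notes also list STAR 2.6.0c, FastQC and Cell Ranger without giving their roles.

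Totals per library were 29249270 to 35003307 counts. In R 4.3.3, edgeR 4.0.16 filtered genes (filterByExpr; at least 10 counts, total at least 15), applied TMM scaling and ran its quasi-likelihood test (glmQLFit, glmQLFTest), with Benjamini-Hochberg adjustment over all 13241 tested genes. The procedure was tested on simulated data. A standard error (SE) is the absolute log2 fold change divided by the root of its F statistic. CPM are counts divided by TMM-scaled library sizes, except for summed marker lists, which use total counts. Fits with DESeq2 1.42.0, limma-voom (limma 3.58.1), other scalings, filters and dispersion, a replicate block, and each library left out were alternatives.

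All 10 members, Cd63, Ins1 and Ins2, called genes of the pathway lists and the 3 genes most like the member with the smallest p were named by rule. Members and lists were chosen with earlier results of these data known. Gene spans in the deposited tables and GENCODE M21 were identical for 9 of 10 members. Replicate numbers shared between groups were not taken as pairs.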

Additional observations from a re-analysis of the deposited data

How the results depend on the processing

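Gpx3 stayed past the threshold under all 14 alternatives, 13 of them planned and 1 added after seeing the data. The count of called genes, 369, was 67 with library size as the only scaling, 940 with no filter, 678 with DESeq2 and 450 to 769 with 1 library left out (769 without CD63 low replicate 1). The count of called members, 2, was 1 with library size only, and 2 to 3 with 1 library left out. That of pathway genes, 1, was 0 with library size only, limma-voom and the robust fit, 5 with no filter, 5 with DESeq2, and 2 to 7 with 1 library left out (7 without CD63 low replicate 1); the cause was not tested. The log2 fold change of Gpx2 ranged from -0.029 (without CD63 low replicate 2) to 0.42 with 1 library left out, being -0.016 without CD63 high replicate 1. That of Mgst3 ranged from -0.35 to 0.32 with 1 library left out, being 0.26 without CD63 high replicate 1, and was 0.011 with upper quartile scaling. The Gpx3 share of the peroxidases per transcript length was 16.2% in CD63 high and 3.24% in CD63 low, and 4.86% of counts in CD63 low without length. Nothing in the labels says that equal replicate numbers pair libraries, and the numbers in the deposited files' names differ from the titles for CD63 low, so which pairing is crossed is in doubt. By the titles' numbers, same-numbered libraries deviated oppositely (r = -0.28 across 7554 genes, which are not independent). The replicate block gave 616 called genes, 3 members (with Gpx1, adjusted p 0.0149) and 3 pathway genes; the crossed pairing, added after seeing this, gave 942, 3 and 9. Fits with 1 library in a group assume that it varies like the other group. Depth limits Gpx8, Gsta4, Gpx7 and Mgst1, which had at most 219 counts in a group.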
